A study of Mus musculus with 22 samples.

Results

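Cathepsins are the proteases of the lysosome, and 9 of them were followed here in mouse microglia, the resident macrophages of the brain: Ctsa, Ctsb, Ctsc, Ctsd, Ctsh, Ctsk, Ctsl, Ctss and Ctsz. They were chosen by name, and each was read from the probe set that maps to that gene alone, of which each of the 9 had 1. They are 9 of the 19937 genes with such a probe set on the array. After a filter on dim probe sets, which kept a gene that exceeded the 50th percentile of its array on 2 or more arrays, 11830 genes were tested and 8 of the 9 cathepsins were among them. Ctsk was the one left out.

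The study measured sorted microglia of 11 Trem2 knockout (KO) and 11 wild type (WT) samples, each on 1 Affymetrix MoGene 1.0 ST array, to ask how Trem2 and a vitamin E diet bear on the microglial response to cuprizone. Trem2 is a lipid-sensing receptor of myeloid cells, cuprizone is a copper chelator that strips myelin in the brain, and Covi-Ox T70 is a mixture of tocopherols (vitamin E). The KO groups were cuprizone (3 arrays), set A (3), set B (3) and control (2), and the WT groups were cuprizone (3), both additives (3, called WT both), Covi-Ox (3) and control (2). By the labels the feed held 0.2% cuprizone, 0.1% Covi-Ox T70 with additional alpha tocopherol, or both, for 4 weeks, after 2 weeks on the tocopherol diet for the combined feed or on normal chow for cuprizone alone. Control samples are labelled only as negative controls. The labels name no strain, sex or age, and no promoter or Cre for the knockout. The labels of 6 KO arrays contradict each other. For the 3 arrays of set A the title names both additives and the other fields Covi-Ox alone, and for the 3 arrays of set B it is the reverse, so both sets are given under these names and neither reading was chosen. Whether replicates were different animals is not stated, and p-values therefore describe the spread between samples, which may be technical. All samples were cells positive for CD11b, CD45 and F4/80 from perfused, enzymatically digested brains. These markers are shared by other macrophages.

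Cathepsins are made as inactive proforms, tagged with mannose 6-phosphate in the Golgi, carried to the endosome and lysosome, and activated there at low pH. Ctsb, Ctsc, Ctsh, Ctsk, Ctsl, Ctss and Ctsz are cysteine proteases of the papain family, Ctsd is an aspartic protease and Ctsa a serine carboxypeptidase. In microglia they degrade phagocytosed material such as myelin debris and help to process antigen, and cystatins and stefins inhibit the cysteine cathepsins.

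Trem2 differed between KO and WT by -3.84 ± 0.06 (log2, SE, 11 and 11 arrays, limma adjusted p = 5.6e-20). Its geometric mean intensity lay between 88.6 and 99.9 in the 4 KO groups and between 1163 and 1462 in the 4 WT groups. Since the exons that the probes cover and those that were deleted are not stated, what remained in KO was not interpreted. The 9 measured microglial markers, among them P2ry12, Tmem119 and Siglech, summed to between 25581 and 28963 intensity units on the KO arrays and between 20382 and 27524 on the WT arrays, so the labelled cell type was borne out on every array. Array medians ran from 36.1 to 38.6. On 3 arrays (WT cuprizone 3, KO cuprizone 2 and KO cuprizone 3) a list of 20 immediate-early genes, which respond quickly to tissue dissociation, averaged 8.87 to 9.28 (log2), against 10.25 to 10.50 on the other 19, and these are called the 3 low arrays. The array KO control 2 lay far from the rest on principal component PC3, where its score was 31.5 and the others ran from -13.8 to 5.52.

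Of the promoters 4 are shown, from members that were called and from members that were not. Ctsz and Ctsl were higher on the WT cuprizone diets, and Ctsd and Ctss did not pass the test in any comparison. Promoter windows of 300 bases (250 before the start of the gene to 50 after it, RefSeq, build GRCm38.p6) were matched by symbol for 7 of the 9 members, Ctsa with 2 starts, while Ctsb and Ctsh were not matched. Windows were searched on both strands for CACGTG, the core of the E-box bound by the lysosomal regulators TFEB, TFE3 and MITF, for the longer TCACGTGA, which contains it, and for GAGGAAGT, an ETS-type motif of the kind bound by the myeloid factor PU.1. Among all 32851 windows 7.15% held CACGTG, 0.974% held TCACGTGA and 3.2% held GAGGAAGT. Capitals mark a match of either motif on either strand, and each sequence runs 5′ to 3′ on the strand of the gene.
The Ctsz window is chr2:174438990-174439289, minus strand.
Ctsz: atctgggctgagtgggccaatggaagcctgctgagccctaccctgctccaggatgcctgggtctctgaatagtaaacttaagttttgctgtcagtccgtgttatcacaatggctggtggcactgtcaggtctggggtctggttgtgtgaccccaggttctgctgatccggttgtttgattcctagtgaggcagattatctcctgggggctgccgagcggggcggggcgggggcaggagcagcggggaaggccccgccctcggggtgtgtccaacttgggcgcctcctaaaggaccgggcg
The Ctsl window is chr13:64370471-64370770, minus strand.
Ctsl: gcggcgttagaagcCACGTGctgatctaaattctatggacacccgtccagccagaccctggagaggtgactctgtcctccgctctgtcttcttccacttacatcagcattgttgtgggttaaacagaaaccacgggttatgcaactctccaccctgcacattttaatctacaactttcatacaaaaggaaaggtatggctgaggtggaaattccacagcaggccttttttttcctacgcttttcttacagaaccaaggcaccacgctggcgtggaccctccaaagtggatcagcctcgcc
The Ctsd window is chr7:142387778-142388077, minus strand.
Ctsd: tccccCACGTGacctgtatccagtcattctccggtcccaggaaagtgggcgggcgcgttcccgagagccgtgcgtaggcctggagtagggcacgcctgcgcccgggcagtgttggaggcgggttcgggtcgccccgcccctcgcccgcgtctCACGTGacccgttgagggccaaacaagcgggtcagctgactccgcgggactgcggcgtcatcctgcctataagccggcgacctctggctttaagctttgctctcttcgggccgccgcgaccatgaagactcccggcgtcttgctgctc
The Ctss window is chr3:95526536-95526835, plus strand.
Ctss: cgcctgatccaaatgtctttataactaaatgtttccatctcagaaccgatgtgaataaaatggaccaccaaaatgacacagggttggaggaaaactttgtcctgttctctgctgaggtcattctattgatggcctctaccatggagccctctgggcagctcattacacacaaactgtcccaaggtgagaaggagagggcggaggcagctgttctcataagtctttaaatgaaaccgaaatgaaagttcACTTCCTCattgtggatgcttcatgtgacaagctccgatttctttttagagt

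The Ctsz window held none of these letters. Ctsl held CACGTG once, 236 bases before the start. Ctsd held it at 245 and at 98 bases before the start, the second inside TCACGTGA. The window of the second Ctsa start held TCACGTGA 13 bases before the start and again 4 bases after it, and that of the first start held none. Ctss held GAGGAAGT 2 bases before the start and Ctsc at 151 bases before it, and Ctsk had no match. CACGTG thus stood in Ctsl, which was called, and in Ctsd and Ctsa, which were not called in any comparison. TCACGTGA and GAGGAAGT stood only in members that were not called. Of the called members only Ctsz and Ctsl had a window, so motif and call were not compared. A match is a description of these letters, not evidence of a site.

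The 8 tested cathepsins were among the brighter probe sets on every array, and Ctsk was below the median on every array. Within each array the 8 lay between percentile 96.3, the lowest value of Ctsh, and percentile 99.9, the highest value of Ctsd. All 8 therefore passed the filter in every group. Ctsk, the collagen-degrading protease of osteoclasts, had intensities of 11.5 to 26.2, at percentile 17.1 to 36.9. Its level was therefore not resolved, and it was not tested.

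The span between the highest and the lowest group mean differed widely among members. It was 1.9-fold for Ctsz, 1.72-fold for Ctsh, 1.69-fold for Ctsb and 1.41-fold for Ctsl. It was 1.26-fold for Ctsc, 1.17-fold for Ctsa, 1.1-fold for Ctsd and 1.09-fold for Ctss. In all of Ctsz, Ctsb, Ctsh and Ctsl, WT both was the highest group and WT cuprizone the next. KO control was the lowest group for Ctsz, Ctsb and Ctsh, and set A for Ctsl. Of the 56 pairs of groups that follow each other in these orders, 1 differed with an adjusted p under 0.05, namely WT cuprizone over set B for Ctsz (0.52 ± 0.11 log2, SE, adjusted p = 0.0106).

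**Figure D1:**
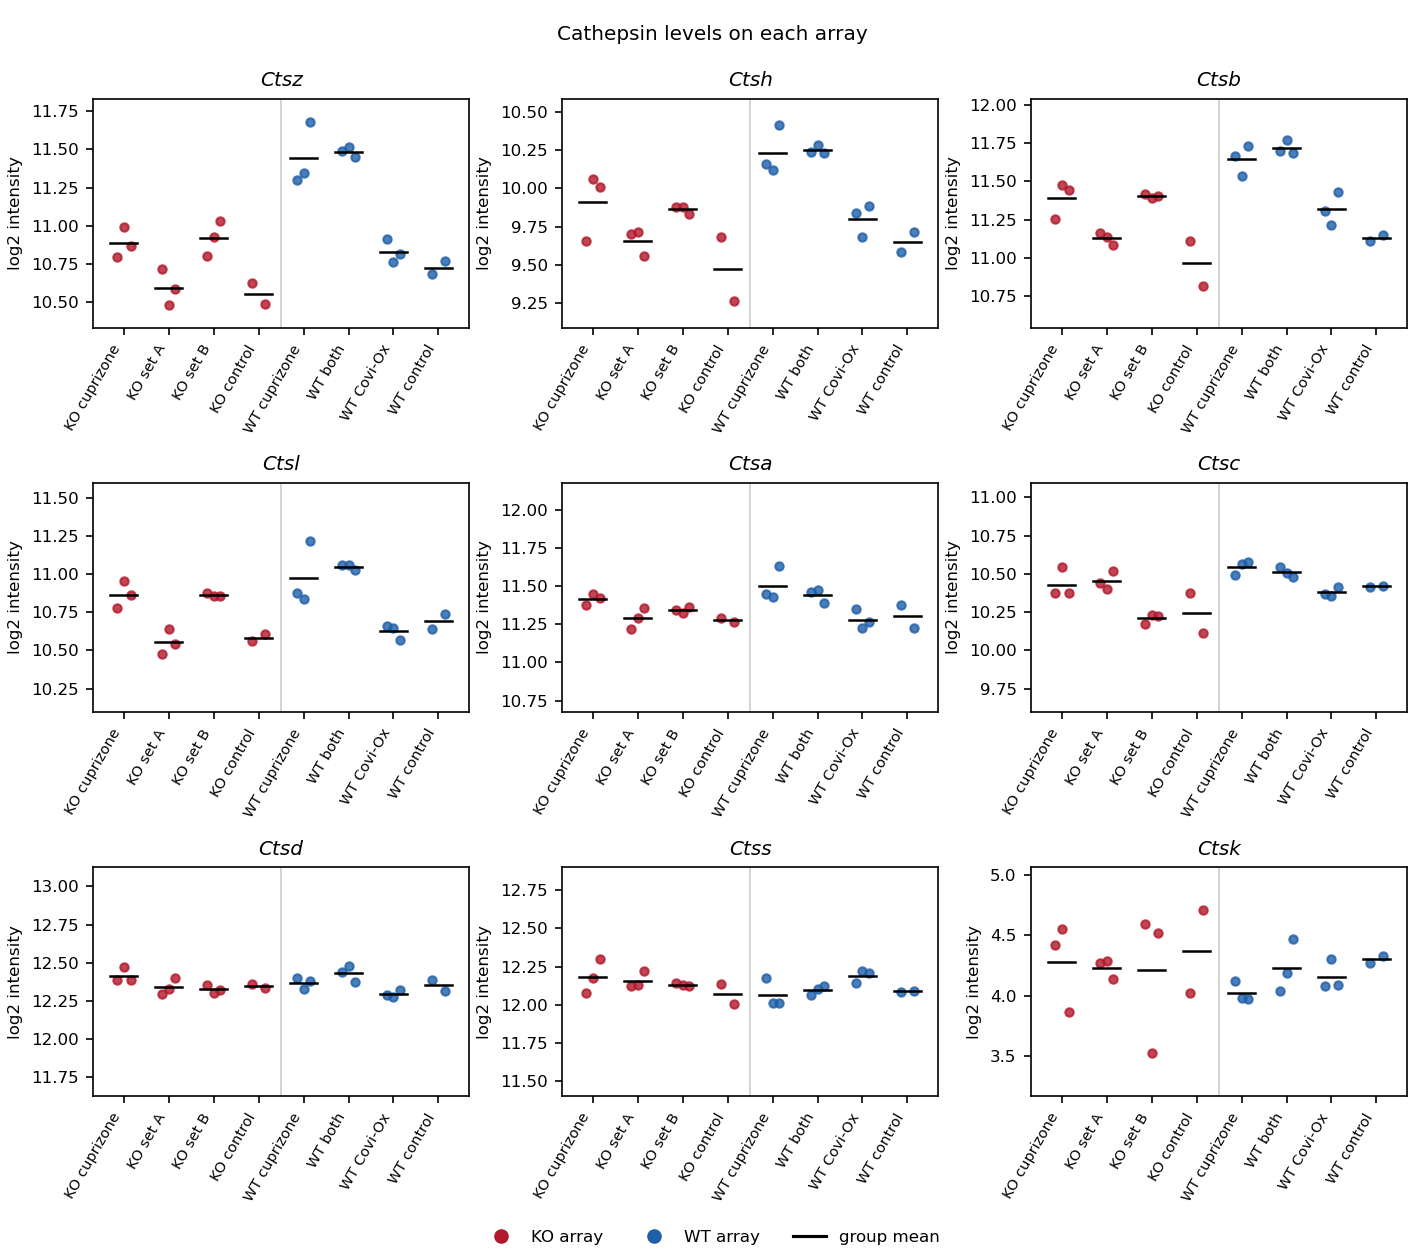
Log2 intensity of the 9 cathepsins on each of the 22 arrays, with 1 point per array (KO red, WT blue) and a bar at each group mean. Axis ranges differ in level between panels, so levels are not compared between genes. In Ctsz, Ctsh, Ctsb and Ctsl the 6 WT arrays with cuprizone lie above the 5 without it, while Ctsd and Ctss stay within 1.1-fold between group means.

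Cuprizone feeding was accompanied in WT microglia by higher Ctsz, Ctsh, Ctsb and Ctsl. Over the WT cuprizone diets (cuprizone and both, 6 arrays) against the WT diets without it (Covi-Ox and control, 5 arrays), these 4 of the 8 tested cathepsins passed the test, all higher, while 7.01% of all genes tested were called higher. Their differences ran from 1.28-fold for Ctsl to 1.61-fold for Ctsz. The median difference of the 8 was 0.27 (log2), against -0.03 over all genes.

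Ctsz, cathepsin Z (also called X), is a carboxypeptidase that removes single residues from the C terminus. Its intensity was 2521, 2606 and 3286 in WT cuprizone and 2872, 2922 and 2794 in WT both, against 1925, 1741 and 1800 in WT Covi-Ox and 1644 and 1747 in WT control. All 6 arrays with cuprizone exceeded all 5 without it. The difference was 0.68 ± 0.08 (log2, SE, 95% interval 0.52 to 0.85, adjusted p = 7.48e-06).

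Ctsh, cathepsin H, acts mainly as an aminopeptidase. It was measured at 1146, 1115 and 1364 in WT cuprizone and 1209, 1247 and 1204 in WT both, against 916, 820 and 944 in WT Covi-Ox and 766 and 840 in WT control. Again the arrays with cuprizone lay above those without. Ctsh rose 1.43-fold, by 0.52 ± 0.09 (log2, SE, adjusted p = 0.000695).

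Ctsb, cathepsin B, cuts both within proteins and from their C terminus, and has been linked to inflammasome activation when it leaks from lysosomes. Intensities were 3257, 2974 and 3406 in WT cuprizone and 3323, 3487 and 3300 in WT both, against 2534, 2376 and 2758 in WT Covi-Ox and 2214 and 2276 in WT control. The groups did not overlap, although the spacing was narrower than for Ctsz. Ctsb rose 1.37-fold, by 0.46 ± 0.07 (log2, SE, adjusted p = 0.000214).

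Ctsl, cathepsin L, is an endopeptidase that also trims the invariant chain in some cells. It reached 1877, 1832 and 2377 in WT cuprizone and 2137, 2131 and 2088 in WT both, against 1621, 1606 and 1516 in WT Covi-Ox and 1596 and 1712 in WT control. The lowest array with cuprizone was still above the highest without. Ctsl rose 1.28-fold, by 0.35 ± 0.07 (log2, SE, adjusted p = 0.00268).

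The other 4 tested members did not pass. Ctsa, also called protective protein because it stabilises beta-galactosidase and neuraminidase, differed by 0.18 ± 0.06 (log2, SE, adjusted p = 0.0631). Ctsc, the dipeptidyl peptidase that activates the serine proteases of granules, differed by 0.13 ± 0.06 (adjusted p = 0.211). For both genes the 6 arrays with cuprizone also lay above the 5 without, at 2686 to 3177 against 2389 to 2655 for Ctsa and at 1429 to 1530 against 1311 to 1374 for Ctsc. So 6 of the 8 cathepsins had no overlap in this direction, against 4.76% of all genes tested.

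Ctsd, the main aspartic protease of the lysosome, and Ctss, which finishes the cutting of the invariant chain for MHC class II and stays active at neutral pH, were the members with the smallest differences. Ctsd was 5394, 5139 and 5326 in WT cuprizone and 5547, 5707 and 5302 in WT both, against 4997, 4953 and 5119 in WT Covi-Ox and 5362 and 5097 in WT control. Ctss was 4624, 4120 and 4125 in WT cuprizone and 4272, 4404 and 4467 in WT both, against 4525, 4779 and 4721 in WT Covi-Ox and 4343 and 4368 in WT control. Both genes overlapped between the pooled diets, and also on normal chow alone. On the Covi-Ox diet every WT both array lay above the WT Covi-Ox arrays for Ctsd and below them for Ctss, and neither gene was called there. The difference was 0.08 (95% interval -0.04 to 0.19, adjusted p = 0.443) for Ctsd and -0.06 (-0.19 to 0.07, adjusted p = 0.614) for Ctss on the log2 scale.

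The size of these rises depended on the scaling between arrays. The 99th percentile of all probe sets was 2169 to 2411 intensity units on the WT arrays with cuprizone and 2046 to 2159 on those without, and the cathepsins lie in that range of brightness. After a second quantile normalization, which makes the arrays' distributions equal, the differences of the 8 moved by a median of -0.13. Ctsz was then 0.53, Ctsh 0.42, Ctsb 0.30 and Ctsl 0.21 (log2), all 4 still called. Ctsa moved to 0.00, Ctsc to 0.01, Ctsd to -0.00 and Ctss to -0.18, none of them called.

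**Figure D2:**
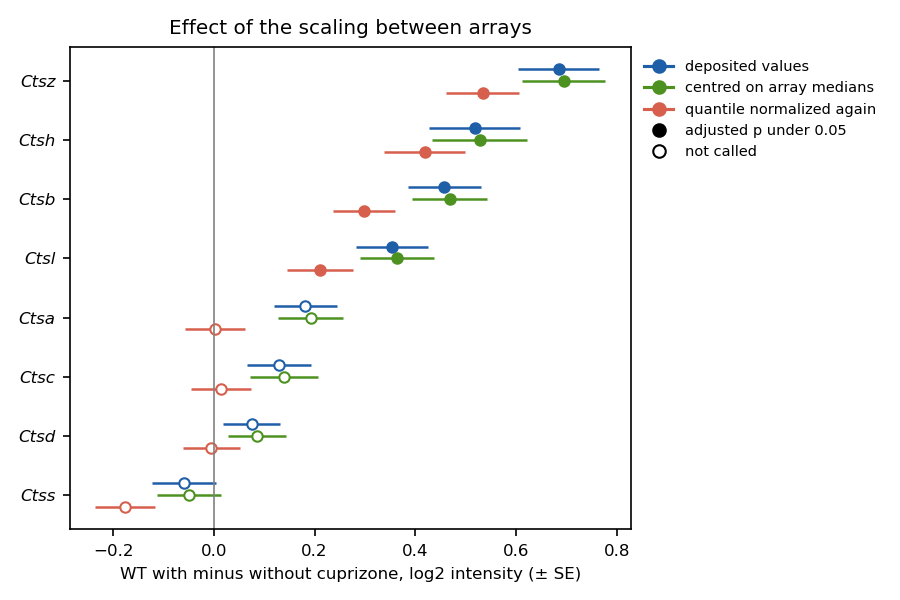
Difference between WT diets with and without cuprizone (log2 intensity, points, with SE bars) for the 8 tested cathepsins under the deposited values, after centring each array on its median, and after a second quantile normalization. Filled points have an adjusted p under 0.05. Ctsz, Ctsh, Ctsb and Ctsl are called under all 3 scalings, with Ctsl at 0.21 after quantile normalization against 0.35 before.

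The 2 cuprizone comparisons within WT rest on separate arrays. On normal chow (3 cuprizone and 2 control arrays) Ctsz, Ctsh and Ctsb rose, 3 of the 8, while 1.8% of all genes were called higher. Ctsz differed by 0.72 ± 0.12 (1.64-fold, adjusted p = 0.00198), Ctsh by 0.58 ± 0.14 (1.5-fold, adjusted p = 0.0238) and Ctsb by 0.51 ± 0.11 (1.43-fold, adjusted p = 0.0118). Ctsl differed by 0.29 ± 0.11 and was not called (adjusted p = 0.185). These calls rested on few arrays: without WT control 1 no member was called, and without WT control 2 or without WT cuprizone 3 only Ctsz was. Ctsh also lost its call without the 3 low arrays (0.49 ± 0.13, adjusted p = 0.0632) and with the mean of the immediate-early list in the model (0.47 ± 0.12, adjusted p = 0.0633). In a fit of only the 5 arrays compared none was called.

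On the Covi-Ox diet (WT both against WT Covi-Ox, 3 arrays each) 4 of the 8 rose, and 4.65% of all genes were called higher. Ctsz differed by 0.65 ± 0.11 (1.57-fold, adjusted p = 0.000513), Ctsh by 0.45 ± 0.12 (1.37-fold, adjusted p = 0.0247), Ctsl by 0.42 ± 0.10 (1.34-fold, adjusted p = 0.00853) and Ctsb by 0.40 ± 0.10 (1.32-fold, adjusted p = 0.0117). After quantile normalization only Ctsz was called (0.50), and Ctsh was 0.31, Ctsl 0.27 and Ctsb 0.22. Without WT Covi-Ox 2 or without WT both 2, Ctsl and Ctsz were the members called. Ctsh alone lost its call without WT Covi-Ox 1, without WT both 1 and without WT both 3, so that it was kept without 1 of the 6 arrays compared.

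Adding Covi-Ox left no cathepsin past the test. For WT Covi-Ox against control 0 of 8 were called by limma (0.0338% of all genes), with differences of -0.06 to 0.18, and for WT both against cuprizone 0 of 8 (0.152% of all genes), with differences of -0.06 to 0.07. The difference between the cuprizone effects with and without Covi-Ox ran from -0.13 to 0.14, with 0 of 8 called and 0.0254% of all genes. At an unadjusted p under 0.05 each of these comparisons held 0 of the 8, against 7.29%, 8.09% and 6.64% of all genes in the same order.

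Without Trem2 no cathepsin passed the test for cuprizone. In KO cuprizone against KO control, 0 of 8 cathepsins were called by limma, and 0.0423% of all genes were. At an unadjusted p under 0.05 there were 4 of the 8, Ctsb, Ctsh, Ctsz and Ctsl, against 13.4% of all genes. The median difference of the 8 was 0.23 (log2), against 0.00 over all genes.

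Ctsb was 2444, 2846 and 2789 in KO cuprizone, against 2210 and 1802 in KO control, and did not overlap (0.43 ± 0.11 log2, SE, 95% interval 0.21 to 0.65, adjusted p = 0.128). Ctsh was 808, 1069 and 1031, against 821 and 614 in KO control, so the groups overlapped (0.44 ± 0.14, adjusted p = 0.187). Ctsz was 1778, 2038 and 1870, against 1578 and 1435 in KO control (0.33 ± 0.12, adjusted p = 0.246). The lowest array of KO cuprizone was the same one for all 3 genes, and KO control 2 was the lower control array for each. Ctsl was 1758, 1988 and 1859 in KO cuprizone, against 1511 and 1560 in KO control (0.28 ± 0.11, adjusted p = 0.272). Ctsc, Ctsa, Ctss and Ctsd differed by 0.07 to 0.19. As for Ctsb, the arrays of KO cuprizone lay above those of KO control for Ctsz, Ctsl, Ctsa and Ctsd. Ctsa was 2660 to 2793 against 2464 to 2504, and Ctsd 5353 to 5670 against 5170 to 5255. Ctsc and Ctss overlapped, as Ctsh did. The share of all genes that separated in this way is not given here, so this is a description. Without KO control 1, which left KO control 2 as the only control, Ctsb was at 0.58 ± 0.12 and Ctsh at 0.65 ± 0.15. Without KO cuprizone 1, which left the low arrays KO cuprizone 2 and 3, they were at 0.50 ± 0.11 and 0.56 ± 0.13. In this fit without KO cuprizone 1, Ctsb and Ctsh were called, with 205 of all genes tested called, against 5 with every array kept. Without KO control 2, the array that stood apart, Ctsb was at 0.28 ± 0.12 (adjusted p = 0.689) and Ctsh at 0.23 ± 0.15 (adjusted p = 0.799). After a second quantile normalization the 8 differences moved by a median of -0.09, to 0.38 for Ctsh, 0.29 for Ctsb, 0.23 for Ctsz, 0.17 for Ctsl and 0.02 for Ctsa, with 0 called.

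**Figure D3:**
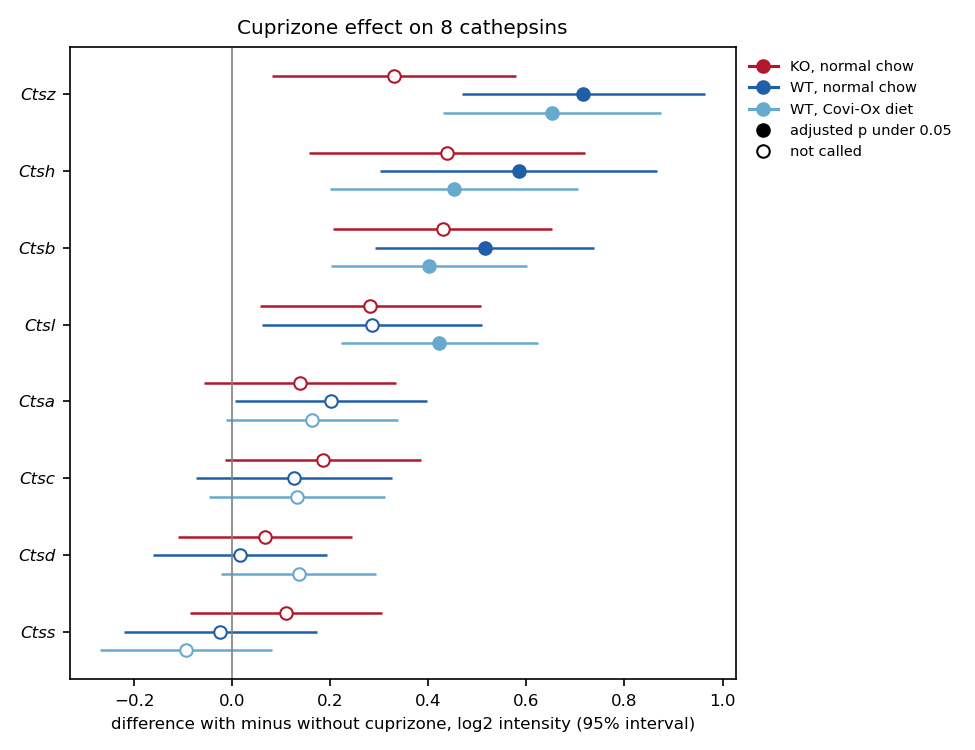
Difference with minus without cuprizone (log2 intensity, points, with 95% interval bars) for 8 cathepsins in KO on normal chow, WT on normal chow and WT on the Covi-Ox diet. Filled points have an adjusted p under 0.05. No KO point is filled, and the KO interval overlaps the WT intervals for every member, with Ctsz at 0.33 in KO and 0.72 in WT on normal chow.

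A call in WT and none in KO does not show that the effects differ, and the difference itself was tested. For Ctsz the cuprizone effect in KO minus that in WT was -0.39 ± 0.17 (log2, SE, 95% interval -0.74 to -0.03, adjusted p = 0.432). It was -0.15 ± 0.19 for Ctsh and -0.09 ± 0.15 for Ctsb, and the other 5 lay between -0.06 and 0.13. By limma 0 of 8 were called (0.228% of all genes), and 1, Ctsz, had an unadjusted p under 0.05, against 10.1% of all genes.

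KO microglia had less Ctsz, Ctsh and Ctsb than WT microglia over all diets, a comparison that is the same under either reading of the contradictory labels. These 3 of 8 were called lower, against 4.69% of all genes. Ctsz differed by -0.38 ± 0.06 (log2, SE, 11 and 11 arrays, 1.3-fold lower in KO, adjusted p = 0.000203). Ctsh differed by -0.26 ± 0.06 (1.2-fold, adjusted p = 0.0196) and Ctsb by -0.23 ± 0.05 (1.17-fold, adjusted p = 0.00755). Ctsc was at -0.13 ± 0.05 (adjusted p = 0.1) and Ctsl at -0.12 ± 0.05 (adjusted p = 0.176). Ctsa, Ctsd and Ctss were at -0.05, -0.00 and 0.03. Ctsh was not called without KO control 2, which stood apart (-0.21 ± 0.06, adjusted p = 0.0729), nor without WT control 2 (-0.24 ± 0.07, adjusted p = 0.0681). No member separated all KO from all WT arrays. The median over the 8 was -0.12.

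Diet by diet, Ctsz was called lower in KO on cuprizone, and no cathepsin was called on control feed. In KO cuprizone against WT cuprizone, Ctsz was 1778, 2038 and 1870 in KO, against 2521, 2606 and 3286 in WT, and the groups did not overlap. It was the 1 member called (2.98% of all genes were called lower), at -0.56 ± 0.11 (log2, SE, n = 3 and 3, 1.47-fold lower in KO, adjusted p = 0.00499). Ctsh and Ctsb did not overlap either, at 808 to 1069 in KO against 1115 to 1364 in WT for Ctsh and 2444 to 2846 in KO against 2974 to 3406 in WT for Ctsb. Their adjusted p was 0.147 each, at -0.32 ± 0.12 for Ctsh and -0.26 ± 0.10 for Ctsb. Such separation in the lower direction was seen for 3 of 8 members and 11.6% of all genes. In KO control against WT control 0 of 8 were called by limma, with 0.0676% of all genes, and 0 had an unadjusted p under 0.05, against 10.5% of all genes. The differences there ran from -0.18 to -0.00, with adjusted p from 0.563 to 0.992.

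The Ctsz call on cuprizone rested in part on arrays outside it. In a fit of only the 6 arrays compared it was not called, nor without the 3 low arrays, which leave 1 KO and 2 WT cuprizone arrays (-0.53 ± 0.14, adjusted p = 0.0961).

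Set A and set B, the KO arrays with contradictory labels, gave different pictures. Ctsz was 1688, 1431 and 1536 in set A and 1786, 1948 and 2093 in set B. Ctsb was 2293, 2248 and 2166 in set A and 2737, 2686 and 2709 in set B, Ctsh was 831, 840 and 755 in set A and 941, 944 and 912 in set B, and Ctsl was 1428, 1598 and 1494 in set A and 1878, 1858 and 1855 in set B. Set B lay above set A on all arrays for these 4, as for 9.37% of all genes. Ctsc ran the other way, at 1391, 1355 and 1469 in set A and 1152, 1204 and 1196 in set B. None of the 8 was called between set B and set A by limma (0.00845% of all genes were), and 4 had an unadjusted p under 0.05, against 8.8% of all genes. The differences were 0.32 ± 0.11 for Ctsz (adjusted p = 0.338), 0.31 for Ctsl, 0.28 for Ctsb, 0.21 for Ctsh and -0.25 ± 0.09 for Ctsc (adjusted p = 0.364).

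Against KO control, 0 of 8 were called by limma in set A (0.0338% of all genes, differences of -0.03 to 0.21, 1 at an unadjusted p under 0.05, against 11.5% of all genes). In set B 0 of 8 were called (0.744% of all genes) and 4 had an unadjusted p under 0.05, against 14.2% of all genes. Ctsb was at 0.44 ± 0.11 there (adjusted p = 0.0603), Ctsh at 0.39, Ctsz at 0.37 and Ctsl at 0.28.

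Against WT both, set A had 4 members lower (5.6% of all genes were called lower). By its title set A had the feed of WT both, and by its other fields it had no cuprizone. Under the latter reading genotype and cuprizone cannot be told apart in this comparison. For set B the readings are reversed. Ctsz was at -0.89 ± 0.11 (1.85-fold lower in set A, adjusted p = 1.2e-05), Ctsh at -0.59 ± 0.12 (1.51-fold, adjusted p = 0.00275), Ctsb at -0.59 ± 0.10 (1.51-fold, adjusted p = 0.000333) and Ctsl at -0.49 ± 0.10 (1.41-fold, adjusted p = 0.00199). In set B against WT both only Ctsz was lower among the 8 (2.62% of all genes), at -0.56 ± 0.11 (1.48-fold, adjusted p = 0.00272). Ctsc, Ctsb and Ctsh had adjusted p of 0.0533, 0.0782 and 0.0876. Their calls varied with the setting, so that 1 to 4 members were called when 1 array was left out. The geometric mean of Ctsz was 1548 in set A and 1938 in set B, against 2862 in WT both and 1820 in WT Covi-Ox.

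**Figure D4:**
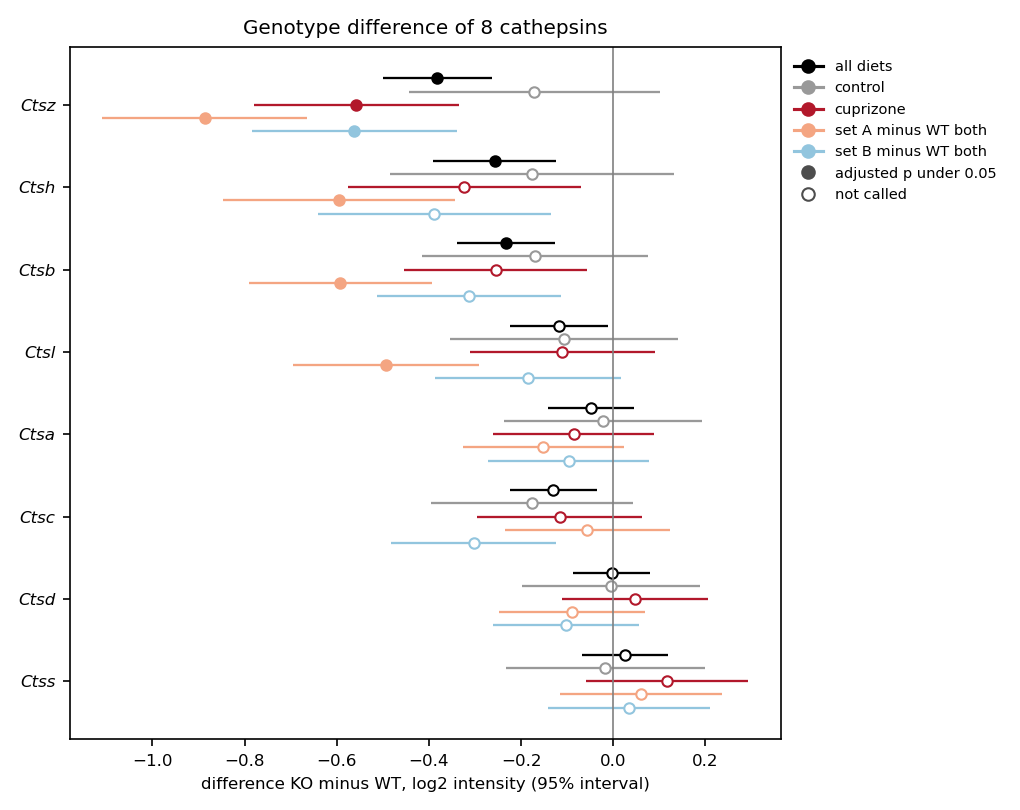
Difference KO minus WT (log2 intensity, points, with 95% interval bars) for 8 cathepsins over all diets, in control, on cuprizone, and for sets A and B against WT both. Depending on which labels are right, either set A or set B also differs from WT both by the absence of cuprizone. Filled points have an adjusted p under 0.05. Ctsz is called in each comparison except control and reaches -0.89 for set A, while Ctsd and Ctss are called in none.

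Levels of cell type markers, microglial and other, differed between some of these groups. The 9 microglial markers were all lower in the WT cuprizone diets, while 5.93% of all genes were called lower, with Tmem119 at -0.47 ± 0.07 and P2ry12 at -0.34 ± 0.06 (log2), and summed to 20382 to 24468 on those arrays, against 26691 to 27524 without cuprizone. Of 8 markers of border macrophages, 4 were lower (Mrc1, Cd163, Pf4 and F13a1), with sums of 1425 to 2235 against 2411 to 3023. In KO against WT over all diets, 6 of the 9 microglial markers were higher, against 1.68% of all genes, with Tmem119 at 0.28 ± 0.05. Of the 8 border macrophage markers 1, Ms4a7, was lower (-0.58 ± 0.17), against 4.69% of all genes. Sums of 9 neutrophil markers were 362 to 2453 on the WT arrays with cuprizone and 175 to 3402 on those without. They were lowest in WT Covi-Ox, at 175 to 245, and 3351 to 3402 in WT control. In KO they were 1047 to 3380 on cuprizone, 315 to 383 in set A, 220 to 794 in set B and 1996 to 2052 in control. Sums of 5 measured monocyte markers were 212 to 317 in KO cuprizone against 154 to 209 in KO control, 204 to 271 in WT cuprizone against 256 to 294 in WT control, and 166 to 205 in WT both against 142 to 149 in WT Covi-Ox. None of the 5 was called in these comparisons. Sums of 6 measured oligodendrocyte markers lay between 328 and 412 on all 22 arrays. The 3 measured endothelial markers summed to 106 to 131 on the KO arrays, to 125 to 217 on the WT arrays with cuprizone and to 106 to 135 on the WT arrays without. Of these Flt1 was 69.1 in WT cuprizone and 128 in WT both, against 24.7 in WT Covi-Ox and 25.1 in WT control, and Pecam1 was lower on the WT cuprizone diets (-0.46 ± 0.14), while Cldn5 lay below the array medians on all arrays. In bulk samples a change in the share of a cell type cannot be told apart from a change in the RNA of each cell, and the part of these cells in the cathepsin values was not tested.

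In their groups the 3 low arrays had more Ctsz, Ctsh, Ctsb and Ctsl than the arrays that were not low. Without them the WT cuprizone diets still differed by 0.62 ± 0.07 for Ctsz, 0.47 ± 0.08 for Ctsh, 0.44 ± 0.07 for Ctsb and 0.29 ± 0.06 for Ctsl, all called. The genotype differences over all diets without them were -0.37 ± 0.05 for Ctsz, -0.30 ± 0.06 for Ctsh and -0.26 ± 0.05 for Ctsb, also called. In KO the cuprizone difference without them was 0.29 ± 0.14 for Ctsb, 0.24 ± 0.14 for Ctsz and 0.19 ± 0.15 for Ctsh, from 1 KO cuprizone array.

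Ctsz, Ctsh, Ctsb and Ctsl, the members called on the WT cuprizone diets, varied together from array to array. Their 6 pairs had a Pearson r of 0.73 to 0.96 over the 11 KO arrays and 0.84 to 0.98 over the 11 WT arrays. Within groups, after the group means were removed, r was 0.30 to 0.93. The closest pair was Ctsb with Ctsh. Ctsa also went with these 4, at r of 0.61 to 0.78 in KO, 0.76 to 0.86 in WT and 0.32 to 0.61 within groups. Ctsc followed these 4 in WT (r of 0.79 to 0.88) but not in KO (-0.19 to 0.29). Ctss ran against the other 7 in WT (-0.75 to -0.30) and with them in KO (0.24 to 0.64). The points share array, scaling and the group structure, so these are descriptions, and the difference between the genotypes was not tested.

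**Figure D5:**
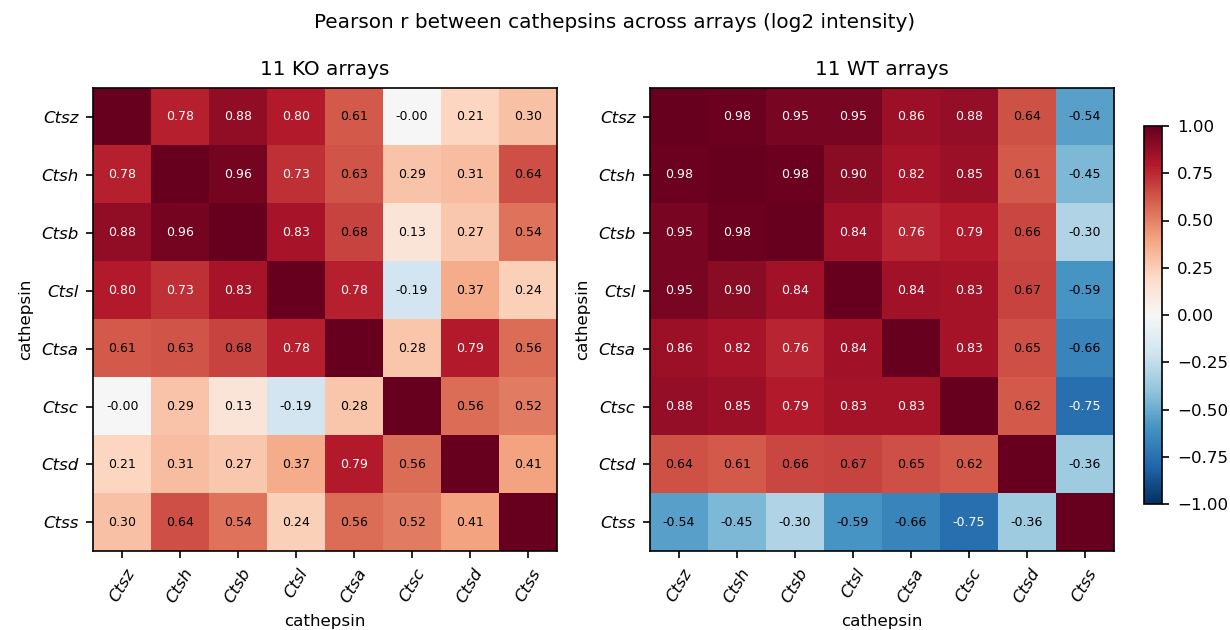
Pearson r between the log2 intensities of 8 cathepsins over 11 KO arrays (left) and 11 WT arrays (right), on a colour scale from -1 to 1. Ctss is negative with the other 7 in WT, at -0.75 to -0.30, and positive in KO, at 0.24 to 0.64.

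By pattern over the 22 arrays, each member was compared with tested genes other than cathepsins and clone or unnamed loci. Among these Ctsz was most like Cst7 (r = 0.97), then Ccl6 (0.96) and Mif (0.96). Cst7 encodes cystatin F, an inhibitor of cysteine cathepsins. Ctsb was also most like Cst7 (0.95). Ctsh was most like Kcnj2 and Naglu (0.95 each), Ctsl like Rpl41 (0.93) and Ctsa like Gusb, a lysosomal glucuronidase (0.89). Ctsc was most like Pgap1 (0.83), Ctsd like Pcdhb22 (0.84) and Ctss like Qk (0.80). These were the highest values among the genes so compared, over arrays that share scaling and groups. Ctsb and Ctsh were closer to each other (r = 0.98) than to any of them.

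Of 11 listed inhibitors of cathepsins, 8 had a probe set and 5 were tested, among them Ctla2a, which lay below the array medians in every group except WT both. Of the other 4 tested, 3 were higher on the WT cuprizone diets, against 7.01% of all genes. Cst7 averaged 1536 in WT cuprizone and 2726 in WT both, against 165 in WT Covi-Ox and 89.5 in WT control, and rose by 4.07 ± 0.27. Cstb, the cytosolic stefin B, rose by 1.05 ± 0.12, and Ctla2b, which resembles the propeptide of cathepsins, by 1.04 ± 0.18. Ctla2a averaged 33.1 in WT cuprizone and 47.0 in WT both, against 18.7 in WT Covi-Ox and 23.3 in WT control, and is given as levels only. Cst3, cystatin C, was at -0.10 ± 0.06 (adjusted p = 0.35). In KO, over all diets, Cst7 (-1.75 ± 0.19) and Cstb (-0.64 ± 0.08) were lower.

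Of 14 further cathepsin genes 12 had a probe set and 4 were tested. Ctse, an aspartic protease of endosomes, averaged 77.2 in WT cuprizone and 171 in WT both, against 32.1 in WT Covi-Ox and 28.1 in WT control, and 30.9 to 33.9 in the KO groups. The levels without cuprizone and in KO lie below the array medians, so Ctse passed the filter through the WT cuprizone diets and no test is given. Ctsll3 also lay below the array medians in the groups other than the WT cuprizone diets, and no test is given for it. Ctsf (-0.01 ± 0.07) and Ctso (-0.10 ± 0.10) were not called.

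Of the 14 tested genes that carry cathepsins to the lysosome and mature them, 3 were higher on the WT cuprizone diets, against 7.01% of all genes. They were Gnptab (0.68 ± 0.10), Gnptg (0.27 ± 0.07) and Vps29 (0.42 ± 0.11). Gnptab and Gnptg are subunits of the enzyme that starts the mannose 6-phosphate tag, and Vps29 is a retromer subunit. Lgmn, legumain, which processes several cathepsins, was at -0.16 ± 0.07 (adjusted p = 0.13). Glb1, beta-galactosidase and partner of Ctsa, rose by 0.55 ± 0.11, and Neu1, neuraminidase and the other partner, was at 0.15 ± 0.09 (adjusted p = 0.33). Of the 5 granule proteases that Ctsc activates, none passed the filter.

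On the route of MHC class II, in which Ctss acts, 3 of 6 tested genes were higher on the WT cuprizone diets, against 7.01% of all genes. They were the invariant chain Cd74 (0.54 ± 0.10), H2-Aa (0.41 ± 0.12) and H2-DMa (0.35 ± 0.10). Ctss itself was not called higher. Of 25 other lysosomal genes tested, 1 (Atp6v0d2) passed the filter through the WT cuprizone diets and is left aside. Of the remaining 24, with a median of 0.16, 1 was lower, the regulator Tfe3 (-0.31 ± 0.07), against 5.93% of all genes. Another 10 were higher, against 7.01% of all genes. They included Gla (1.15 ± 0.13), Naglu (0.69 ± 0.12), Gusb (0.66 ± 0.11), Lipa (0.61 ± 0.09) and Gaa (0.61 ± 0.10), while Lamp1 (0.16 ± 0.07) and Cd68 (0.15 ± 0.06) were not called. In KO, over all diets, 6 of the 24 were lower and none higher, against 4.69% and 1.68% of all genes.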

How the data were processed

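RNA of 22 sorted microglia samples was measured on Affymetrix MoGene 1.0 ST arrays. The authors deposited linear intensity per probe set, made with RMA per the submitters' processing notes. No version of RMA is named there. RMA makes arrays nearly alike in distribution, so a change in total RNA cannot be seen. Log2 was taken of the intensity. The platform's gene table named the probe sets: of 28098, 21640 name 1 gene, 1321 several (left out), and the probe set with the highest mean was kept per gene. RefSeq served for names and promoters.

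Differences were tested two-sided with limma 3.58.1 in R 4.3.3, in 1 model of 8 group means (residual df 14, prior df 5.49), with Benjamini-Hochberg adjustment over 11830 genes and a call at an adjusted p under 0.05. Errors are SE of the model. The median SE over genes was 0.151 for 3 against 2 arrays and 0.136 for 3 against 3. The workflow was tested on simulated data. All 9 members are described in every comparison, and other genes come from lists of inhibitors, sorting, MHC class II, lysosome and cell markers. Members and lists were chosen with earlier results of these data known. In all 33 alternative settings were tried, among them another scaling, filter, array weights, the replicate number as a block and leaving out each array. No batch is given in the sources used here.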

Additional observations from a re-analysis of the deposited data

How the results depend on the processing

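Each comparison was tried under 33 alternative settings, 22 of which leave out 1 array. The exception is KO against WT over all diets, with 32, since it already uses every array. Of the 20 called pairs of cathepsin and comparison, 12 were called in all settings tried, and none of the 20 changed sign. Of the 108 uncalled pairs 10 were called in some setting and 43 changed sign in some. For WT cuprizone against control the count of 3 became 0 with only the arrays compared and 0 to 3 with 1 array left out. For KO cuprizone against KO control the count of 0 became 0 to 2. For KO cuprizone against WT cuprizone the count of 1 became 0 with only the arrays compared, 0 without the 3 low arrays, and 2 with the mean of the immediate-early list as a covariate. For WT both against WT Covi-Ox the count of 4 became 1 after quantile normalization and 2 to 4 with 1 array left out. For set B against KO control the count of 0 became 1 with a filter at the 75th percentile, with limma's trend and robust options, with the 3 low arrays left out and with that covariate, and 0 to 2 with 1 array left out. For set B against WT both the count of 1 became 2 with only the arrays compared, the stricter filter, arrays centred on the median or the covariate, 3 with trend and robust options or without the 3 low arrays, 4 with array weights, and 1 to 4 with 1 array left out. The cause was not tested beyond these settings' own construction. The count stayed at 4 to 5 for the WT cuprizone diets and at 2 to 4 for KO against WT over all diets. The replicate numbers do not pair the samples: deviations of same-numbered arrays had a median r of -0.0004 over 71 pairs, against 0.004 over 140 pairs with different numbers. With the replicate number as a block, Ctsh in WT cuprizone against control was at 0.57 ± 0.14 (adjusted p = 0.0561) and lost its call, so that 2 members were called there, and no other call changed. With 2 or 3 arrays a group, differences near the SE cannot be resolved, and Ctsk lies too near background to be read.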
